A study of Populus ussuriensis with 12 samples.

Results

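In poplar roots overexpressing PuHox52, 232 genes were lower than in wild type at normal nitrogen (N), while the genotype difference of their mean levels at low N stayed within a set limit. The members were chosen from the measured values themselves, among the 34699 gene IDs of the deposited table. A gene had to reach 1 FPKM (fragments scaled to gene length and to library size) in at least 3 libraries and a mean of 5 FPKM in at least 1 group, and to lie outside a run of IDs from Potri.013G000100 to Potri.013G032200. Of the 18557 genes that met these conditions, 369 were lower in overexpression roots at normal N by at least 1 on the log2(FPKM + 1) scale. The 232 members are those among them whose genotype difference at low N was smaller than 0.7 in either direction. They make up 1.25% of the genes that met the level conditions.

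PuHox52 belongs to the homeodomain-leucine zipper family, plant transcription factors that bind DNA as dimers and are known to take part in growth and in responses to the environment. Nitrate is both a nutrient and a signal for roots, and roots are known to change their growth and gene expression when N is scarce. The files give no gene names or functions for the Potri IDs, so the members are described by ID and no role is given to any of them. Checks of the tissue by markers of shoot or dividing cells could not be made for the same reason.

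The libraries came from roots of Populus ussuriensis, a poplar multiplied clonally in vitro. Wild-type plants (WT) and PuHox52-OE plants (OE) were started from top internodes, kept for 6 days on woody plant medium and then for 3 weeks on medium with normal or low N, which gave 4 groups of 3 libraries. All groups share this culture and differ in genotype and N supply alone, as far as the labels say. The sources used here do not give the promoter of the transgene, the number of transgenic lines or the N concentrations.

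The deposited FPKM values carry no read counts, so absolute depth is unknown. The steps between low values gave a depth of 1 to 1.22 for the normal-N libraries and 0.446 to 0.502 for the low-N libraries, relative to WT, normal N, replicate 1. Low-N values of weakly expressed members are therefore less precise. The labels name 2 sequencing companies without saying which made which library, so N supply cannot be told apart from depth or company in any comparison between N supplies. The row of the overexpressed gene is not named in the table. The ID with the largest rise at normal N, Potri.014G103000, had 6.71, 8.14 and 7.31 FPKM in the WT libraries against 2392, 2274 and 2251 in the OE libraries, and at low N 55.4, 51.0 and 28.2 against 1557, 2310 and 1091. Its high values follow the genotype label in all 12 libraries.

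At normal N the members lay at a median of 16.5 FPKM in WT roots and 5.46 in OE roots. The genotype difference ran from -3.42 to -1.001 on the log2 scale with a median of -1.32. In all, 159 members lay between -1.5 and -1, 43 between -2 and -1.5, and 30 at -2 or below. In FPKM the WT mean was 2.03 to 34.1 times the OE mean, with a median of 2.75. The 3 OE libraries lay below the 3 WT libraries in all 232 members, against 33.3% of the 24570 genes tested. In the fit over all genes 219 members were called lower in OE roots and 0 higher, against 17.3% and 6.54% of tested genes (limma, Benjamini-Hochberg adjusted p under 0.05). These values chose the members, so they describe the set and nothing is read from the counts. The 13 members not called each had a range of at least 1 on the log2 scale among the 3 OE low-N libraries, which enters the spread shared by all groups in the fit.

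**Figure D1:**
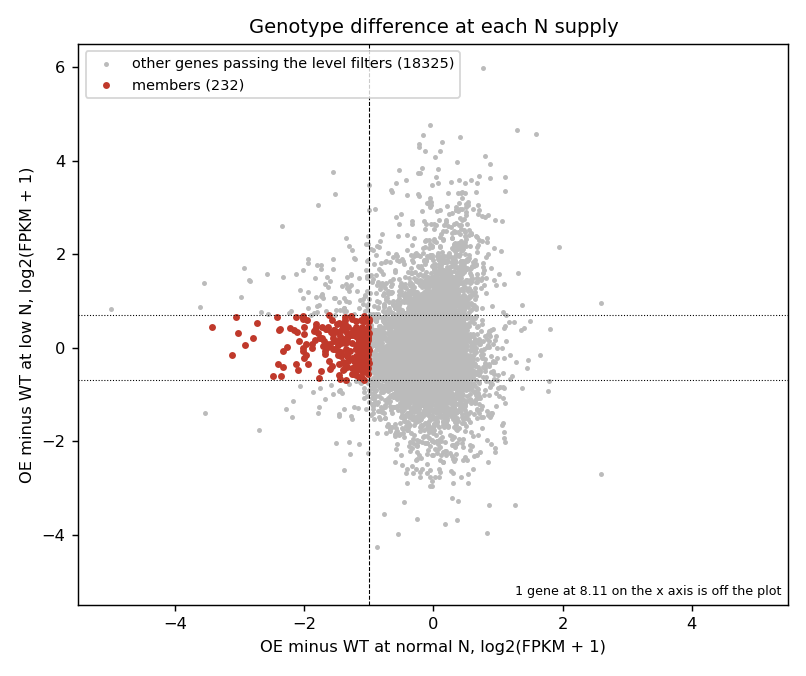
Each point is 1 gene that met the level conditions, with the difference of group means, OE minus WT, on the log2(FPKM + 1) scale at normal N (x axis) and at low N (y axis). The 232 members (red) lie left of -1 (dashed line) and between -0.7 and 0.7 (dotted lines), and 41 genes left of the dashed line lie below that band and 96 above it.

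The thresholds cut through a continuous spread of genes. The members nearest the normal-N threshold were Potri.012G059600 and Potri.005G145800, with log2 differences of -1.0009 and -1.0010, and the nearest genes outside were Potri.003G152100 with -0.998 and Potri.017G050200 with -0.995. At the low-N threshold Potri.014G078700 with 0.69 and Potri.006G057900 with 0.69 lay inside, and Potri.017G045100 with 0.70 and Potri.002G050300 with -0.70 lay outside.

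The member with the largest difference at normal N was Potri.001G122100. It had 14.8, 14.1 and 14.4 FPKM in the WT libraries and 0.341, 0.536 and 0.438 in the OE libraries, a log2 difference of -3.42. At low N it had 3.62, 2.31 and 4.84 FPKM in WT and 3.70, 7.25 and 4.91 in OE roots. The low-N libraries of both genotypes thus lay between the normal-N libraries of WT and OE, and overlapped each other.

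Potri.007G134000 showed another course, in which the low-N libraries lay near the OE normal-N level. It had 13.9, 15.2 and 16.7 FPKM in WT at normal N and 1.03, 0.902 and 1.58 in OE. At low N it had 1.43, 1.09 and 0.983 FPKM in WT and 2.17, 1.12 and 0.682 in OE. WT at normal N was the one group that stood apart, and the other 3 groups overlapped. Potri.015G144800 was similar, with 36.5, 36.6 and 35.5 FPKM in WT at normal N, 2.78, 4.07 and 3.11 in OE at normal N, 10.5, 3.74 and 6.05 in WT at low N and 5.53, 6.59 and 4.51 in OE at low N. Its low-N libraries were all far under the WT normal-N libraries, and 1 of them reached the OE range.

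Of the 10 members with the largest normal-N difference, Potri.006G105500, Potri.014G102700 and Potri.006G002401 were low outside WT at normal N. Potri.014G102700 had 8.21, 7.45 and 8.30 FPKM in WT at normal N and at most 1.27 in any other library. Potri.006G002401 had 7.53, 8.94 and 7.45 FPKM there, 0.607 to 0.709 in OE at normal N, and was listed at 0 in all 3 WT low-N libraries. Potri.006G105500 had 9.06, 11.99 and 8.56 FPKM in WT at normal N and was listed at 0 in 2 of the 3 WT low-N libraries, with 0.139 in the third. In OE it had 0.284, 0.383 and 0.199 FPKM at normal N, and its low-N libraries held 2.11, 0.448 and 0, so that OE low-N replicate 1 stood above the others. Since 1 is added to each value before the log, the scale compresses differences between values this low.

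Potri.017G135000 had 31.9, 33.3 and 31.3 FPKM in WT at normal N and 3.06, 2.99 and 3.17 in OE. Potri.012G127400 had 20.1 FPKM in each of the 3 WT normal-N libraries and 2.86, 3.73 and 1.97 in OE. In Potri.006G138700 the values were 10.2, 14.6 and 10.5 against 0.769, 0.951 and 0.944. In all 3 the OE normal-N libraries lay far under WT, and in Potri.012G127400 they were also widely spread. Potri.014G149700, the last of the 10, is described with the members that rose at low N.

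The members differed widely in abundance. The WT normal-N mean was at least 100 FPKM in 17 members, 10 to 100 in 145 and under 10 in 70. A mean of 5 FPKM was reached in every group by 109 members. Another 50 passed the level condition through WT at normal N alone, so a lower value elsewhere was built into their choice. In 5 members both low-N groups had means under 1 FPKM.

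The most abundant member was Potri.001G239650, with 564, 669.8 and 569 FPKM in WT at normal N and 190.4, 184 and 205 in OE. Its low-N libraries, at 251, 168 and 179.8 in WT and 214, 147 and 248 in OE, scattered around the OE normal-N level. The ID next to it in the table, Potri.001G239700, was the second most abundant, with 252, 310.0 and 261 FPKM in WT and 80.3, 80.8 and 93.2 in OE at normal N. Its low-N libraries stood at 251, 248 and 225 in WT and 236, 185 and 248 in OE, close to the WT normal-N level. The neighbours were thus alike at normal N, with WT means 3.11 and 3.24 times the OE means, and unlike at low N. Whether the counting could have split fragments between them is not given in the sources used here.

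Potri.013G057500 took the course of Potri.001G239700, with 197, 236 and 184 FPKM in WT and 75.05, 82.3 and 63.4 in OE at normal N. At low N it had 193, 188 and 263 in WT and 192, 262 and 218 in OE, which overlapped the WT normal-N libraries. Potri.010G027500 lay below both normal-N groups at low N. It had 244, 274 and 243 FPKM in WT and 85.2, 88.8 and 88.5 in OE at normal N, and 71.2, 56.7 and 54.5 in WT and 70.0, 61.2 and 48.2 in OE at low N. Potri.010G132101 and Potri.017G146600 shared that order, with means of 250.7, 109, 57.0 and 67.7 FPKM and of 188, 88.2, 38.7 and 32.6 FPKM in WT normal N, OE normal N, WT low N and OE low N.

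**Figure D2:**
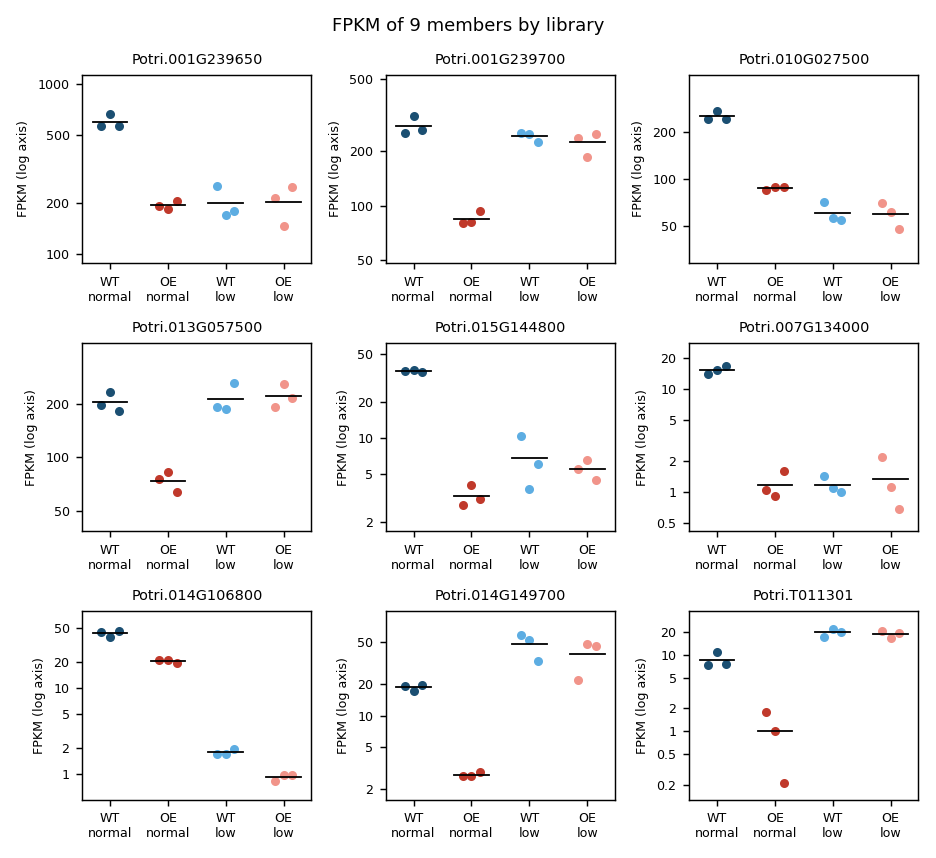
FPKM of 9 members (log axes), with 1 point per library and a line at the mean of each group of 3 libraries (WT and OE at normal and low N). OE at normal N lies below WT at normal N in every panel, while the low-N groups lie near OE at normal N (Potri.007G134000), near WT at normal N (Potri.013G057500), below both (Potri.014G106800) or above both (Potri.014G149700).

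At low N the genotype difference of the members ran from -0.68 to 0.69 with a median of 0.09, against a median of -0.10 over all tested genes. It was above 0 in 134 members and under 0 in 98. The rule fixes these limits, and a mean difference within them is not equality. The 95% interval of the difference (limma) lay wholly between -1 and 1 in 184 members and reached -1 or 1 in 48. It included 0 in 157 members. The fit takes 1 spread per gene for all 4 groups. The members' median SD within a group was 0.20 in WT and 0.36 in OE at low N. At normal N it was 0.09 and 0.11. The low-N intervals are therefore likely too narrow, and 184 may be too high a count. In the fit over all genes 34 members were called lower and 22 higher in OE roots at low N, against 30.3% and 17.6% of tested genes. The low-N libraries of the genotypes did not overlap in 26 members with OE lower, against 33.7% of tested genes, and in 19 with OE higher, against 19.2%. Nothing is read from these counts, since the rule used this difference.

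In plain FPKM the low-N mean of OE roots was at least 2 times that of WT in 9 members and at most 0.5 times in 1. Potri.006G002401 is not counted here, since its WT low-N mean was listed at 0, against 0.641 in OE, and gave no ratio. In 7 of the 9 the 3 OE low-N libraries ranged over at least 1 on the log2 scale, so the mean rested on unequal libraries. Potri.016G139700 did not have such a range, with 0.458, 0.552 and 0.588 FPKM in the WT and 1.19, 1.39 and 1.44 in the OE low-N libraries, a ratio of 2.52 without overlap. Its difference on the log2(FPKM + 1) scale was 0.61, which kept it in the set. The 95% interval was 0.43 to 0.79.

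The OE low-N libraries differed among themselves in many members. The range of the 3 OE low-N libraries was at least 1 on the log2 scale in 68 of the 232 members (29.3%), against 3.69% of tested genes. In the WT low-N libraries it was at least 1 in 10 members, against 1.84% of tested genes. At normal N such a range was found in 0 members in WT and 1 in OE. The median range was 0.69 in OE and 0.37 in WT at low N, against 0.25 and 0.20 over all tested genes. At normal N the members' median ranges were 0.17 in WT and 0.21 in OE, against 0.19 and 0.15 over all tested genes.

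In these 68 members OE low-N replicate 1 was the highest of the 3 libraries 52 times and replicate 3 the lowest 45 times. Over all tested genes replicate 1 was also most often the highest (39.3%) and replicate 3 most often the lowest (41.0%). Over all 232 members these shares were larger, at 50.9% and 49.6%. The median of replicate 1 minus replicate 3 was 0.25 on the log2 scale in the members and 0.04 over all tested genes. The order of these libraries was thus also seen outside the members, though in a smaller share of genes, and this difference was not tested. Potri.018G095100 had the widest range, with 59.4 FPKM in replicate 1, 5.70 in replicate 2 and 1.66 in replicate 3, against 4.57, 8.39 and 12.3 in the WT low-N libraries. Its normal-N libraries were close together, at 15.1, 16.2 and 15.8 in WT and 6.51, 7.16 and 6.58 in OE. Potri.005G139300 had 13.9, 1.34 and 0.261 FPKM in the OE low-N libraries against 1.24, 1.55 and 2.43 in WT, and Potri.002G098800 had 26.5, 5.03 and 1.32 against 6.48, 3.70 and 4.29. These 3 were named after their values were seen, as the members with the widest ranges. In each of them OE replicate 1 lay above and replicate 3 below all WT low-N libraries, so the small difference of the means stands for libraries on either side of WT.

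OE low-N libraries lay on both sides of all 3 WT low-N libraries in 74 members (31.9%), against 10.2% of tested genes, and 44 of these 74 were among the 68 with the wide range. Taken alone, OE low-N replicate 1 was at least 1 above the WT low-N mean in 41 members and at least 1 below it in 3, against 5.21% and 3.97% of tested genes. The counts were 4 and 0 for replicate 2, against 4.73% and 4.14%, and 2 and 8 for replicate 3, against 4.34% and 4.46%. The rule limited the low-N difference of the means from these same libraries, which favours libraries on both sides of WT. These counts are thus a description, and nothing is read from the shares beside them. Without OE low-N replicate 1 the rule chose 232 genes, of which 207 are members here. Of the members, 164 had a range under 1 in the OE low-N libraries, and their median low-N difference was 0.0038, against 0.24 in the 68 with the wide range. By the N test described next, 76 of the 164 fell at low N and 59 rose, and 36 of the 68 fell and 8 rose. Both groups may hold members that passed the level condition through WT at normal N alone, for which a fall is favoured. The lower depth at low N applies to WT libraries as well. Its part in the spread was not tested.

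**Figure D3:**
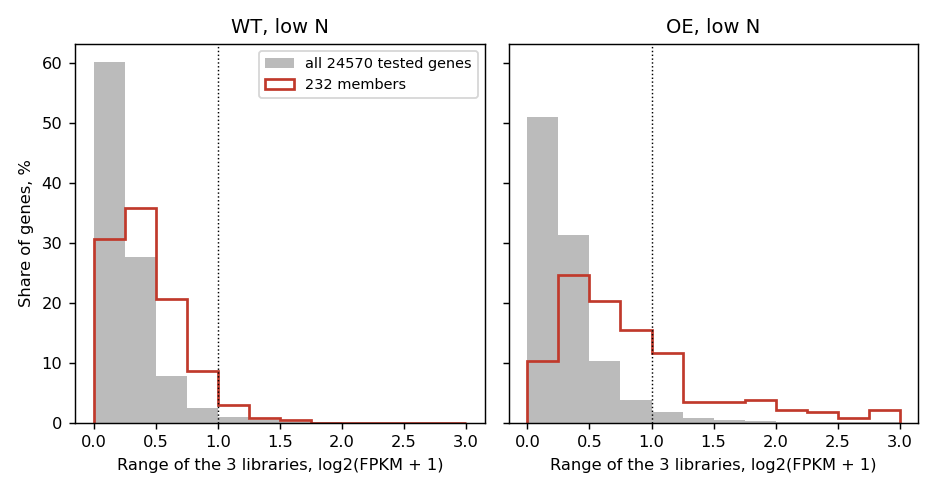
Share of genes (y axis, %) by the range of the 3 libraries of a group on the log2(FPKM + 1) scale (x axis, bins of 0.25), for WT (left) and OE (right) at low N, with members in red and all 24570 tested genes in grey; ranges over 3 are in the last bin. To the right of the dotted line at 1 lie 10 members in WT and 68 in OE.

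The effect of N supply was then tested on a contrast that is not one of the 2 differences in the rule. The mean of both genotypes at low N minus the mean of both at normal N is orthogonal to the genotype differences by which the members were chosen. It is fully independent of them only where both genotypes vary alike, and the OE low-N libraries varied more. The level conditions also enter it for the 50 members that passed through WT at normal N alone, for which a low value at low N was built into the choice. The limit on the low-N difference is also met more easily at low FPKM, since 1 is added before the log. That favours genes with small low-N values, with or without those 50 members. The shares of members that fell and rose are thus not free of the rule. At low N 112 members fell and 67 rose (limma, Benjamini-Hochberg adjusted p under 0.05 over 24570 genes), and 53 did not pass the test. Among all tested genes 25.8% fell and 51.8% rose, against 48.3% and 28.9% of the members. Without those 50 members, a choice made after seeing the data, 75 of 182 fell (41.2%) and 66 rose (36.3%), with a median of -0.05. The median of the members was -0.33, with quartiles of -0.92 and 0.37, and that of all tested genes 0.20. Median-of-ratios scaling took the median of all genes to 0.00 and that of the members to -0.53, with 128 members fallen (55.2%) and 50 risen (21.6%), against 38.2% and 37.4% of all genes under the same scaling. The shares of members fallen and risen were closer to those of all genes there, while the medians stood about as far apart. Potri.001G289500 and Potri.011G057000, called higher with 0.19 and 0.21, turned to -0.04 and -0.01 and were no longer called.

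A fall of at least 1 was called in 53 members (22.8%), against 4.60% of tested genes, and a rise of at least 1 in 19 (8.19%), against 9.40%. These counts include the 50 members that passed the level condition through WT at normal N alone, for which a fall is favoured. They were not made without those members, so the share of falls is a description. When libraries were left out one at a time, 111 to 126 members fell and 64 to 70 rose. No test of the members as a set was made.

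**Figure D4:**
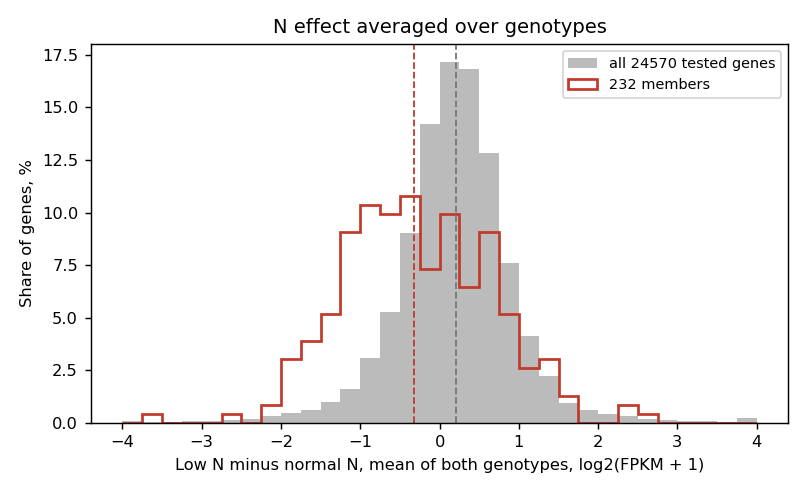
Share of genes (y axis, %) by the N effect averaged over genotypes (low N minus normal N) on the log2(FPKM + 1) scale (x axis, bins of 0.25), for the 232 members (red) and all 24570 tested genes (grey, values beyond 4 in the end bins). Dashed lines mark the medians, -0.33 for members and 0.20 for all tested genes.

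Potri.014G106800 showed the largest fall at low N. It had 43.8, 39.2 and 45.6 FPKM in WT and 20.9, 20.8 and 19.4 in OE at normal N, and 1.71, 1.74 and 1.95 in WT and 0.850, 0.982 and 0.990 in OE at low N. The mean at normal N was 23.1 times that at low N, with a log2 difference of -3.72 ± 0.0560 (SE; limma adjusted p = 1.23e-14). In this gene the OE libraries were below the WT libraries without overlap at both N supplies. Its mean was 42.9 FPKM in WT and 20.4 in OE under normal supply. Under low supply the means were 1.80 and 0.941, so in plain FPKM the relative lowering was of similar size. Its low-N genotype difference of -0.53 stayed inside the threshold on the log2(FPKM + 1) scale, which compresses differences between values this low. Its membership thus does not mean that the lowering was limited to normal N.

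Potri.016G139700 fell by 2.59 ± 0.0594 (SE; limma adjusted p = 8.81e-13), from 16.5, 17.0 and 16.5 FPKM in WT and 6.66, 6.28 and 6.17 in OE at normal N to the low-N values given above. Potri.001G296450 had 12.5, 10.7 and 12.6 FPKM in WT and 1.37, 1.74 and 1.40 in OE at normal N, and at most 1.27 in any low-N library, where 3 of the 6 were listed at 0. Potri.005G026700 fell by 2.02 ± 0.297 (SE; limma adjusted p = 0.000118). It had 15.4 FPKM in OE low-N replicate 1 and 3.00 to 4.73 in the other 5 low-N libraries, so that 1 library again stood apart.

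Among the members that rose at low N, Potri.016G002900 had the largest effect. It had 2.60, 3.44 and 2.79 FPKM in WT and 0.178, 0.201 and 0.417 in OE at normal N, and 10.2, 15.2 and 8.31 in WT and 7.50, 26.3 and 17.5 in OE at low N (log2 difference 2.64 ± 0.249 SE, limma adjusted p = 2.33e-06). All 6 low-N libraries were above all 6 normal-N libraries. Potri.014G149700 rose by 2.31 ± 0.193 (SE; limma adjusted p = 9.93e-07). Its values were 19.1, 17.3 and 19.6 FPKM in WT and 2.66, 2.62 and 2.91 in OE at normal N, and 58.6, 53.0 and 33.5 in WT and 22.1, 47.9 and 45.8 in OE at low N.

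Potri.T011301 had 7.48, 10.9 and 7.66 FPKM in WT and 1.81, 1.02 and 0.211 in OE at normal N, and 17.3, 22.4 and 19.9 in WT and 20.5, 16.6 and 19.7 in OE at low N. It rose by 2.25 ± 0.179 (SE; limma adjusted p = 4.13e-07), and the low-N libraries of the genotypes overlapped. Potri.001G297466 rose by 1.59 ± 0.0923 (SE; limma adjusted p = 9.01e-09), with 28.1 to 30.1 FPKM in WT and 10.3 to 11.1 in OE at normal N and 43.0 to 67.2 over the low-N libraries.

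Among the members with the largest genotype difference at normal N, Potri.001G122100 had an N effect of 0.15 ± 0.147 (SE) and was not called (limma adjusted p = 0.352). With 0.1 in place of 1 added before the log, its effect was 0.63 and was called (limma adjusted p = 0.00894). In the main fit Potri.017G135000 and Potri.006G138700 were also not called, with -0.56 (limma adjusted p = 0.07) and -0.91 (limma adjusted p = 0.0659). In both, OE low-N replicate 1 was far above the other low-N libraries, at 17.4 FPKM against 3.69 to 6.92 and at 9.22 against 0.560 to 1.60. Without that library both passed, with -0.83 and -1.34. Potri.012G127400 fell by 0.42 (limma adjusted p = 0.0355), and this call was lost in 8 of the 12 fits that left out 1 library.

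The place of the low-N libraries relative to the normal-N groups sorted the members into several courses. In 90 members the 6 low-N libraries all lay under WT at normal N, and the lowest of them was within or below the OE normal-N range while not all were below it. In 53 they all lay above OE at normal N and at least 1, but not all, reached or passed the WT range. In 35 they lay wholly between both groups, and in 14 they reached both ranges. All 6 lay under every normal-N library in 24 members (10.3%), against 12.5% of tested genes, and above every one in 16 (6.90%), against 29.8%. By the N test above, 79 of the 90 and all 24 fell, 44 of the 53 and all 16 rose, and 8 of the 35 fell and 7 rose. These places use the normal-N libraries that chose the members and are given as a description. The N test contrasts the same libraries that define the places, so its calls largely follow from them and are no separate result.

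**Figure D5:**
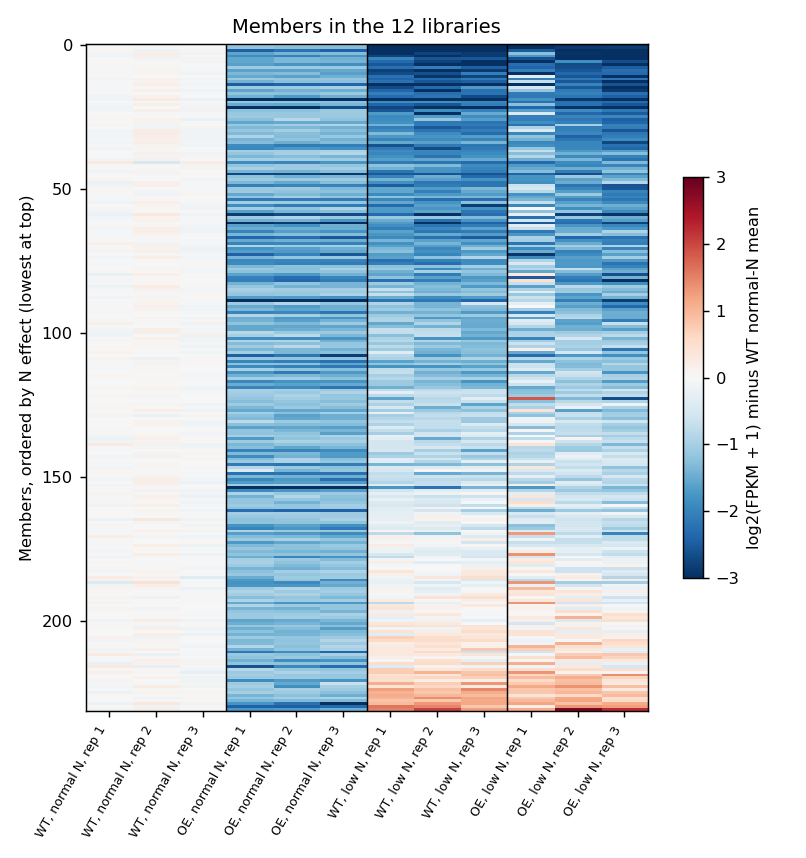
Each row is 1 of the 232 members and each column 1 of the 12 libraries, with colour for log2(FPKM + 1) minus the WT normal-N mean of the gene (limits -3 and 3), ordered by the N effect averaged over genotypes. The OE normal-N columns are blue throughout, the low-N columns run from blue to red down the rows, and OE low-N replicate 1 is paler than its neighbours in many of the upper rows.

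Within WT the members were lower at low N than at normal N by a median of 1.05 on the log2 scale (log2 difference -1.05), and within OE they were higher by a median of 0.50. The medians of all tested genes were 0.19 and 0.22. In WT 121 members (52.2%) were lower by at least 1, against 6.61% of tested genes, and 7 were higher by at least 1, against 10.4%. In OE 64 members (27.6%) were higher by at least 1, against 11.4%, and 11 were lower, against 4.63%. The choice of genes high in WT and low in OE at normal N favours both directions, so these values carry no test. By library, the members' median was 16.0 to 16.4 FPKM in WT and 5.49 to 5.75 in OE at normal N, 7.73 to 8.67 in WT at low N, and 11.6, 9.48 and 7.51 in the 3 OE low-N libraries.

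In the 78 members with the largest normal-N difference (-3.42 to -1.47) the median low-N difference was 0.20, and in the 78 with the smallest it was 0.00. These groups were formed after the values were seen, from values of the rule, and are a description.

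The members were set beside the other genes lowered at normal N. The 41 genes that were also lower at low N, by at least 0.7, had a median N effect of -0.19 and a median OE low-N range of 0.41. In the 96 genes that were higher in OE roots at low N by at least 0.7, the medians were -0.30 and 0.99, and 47 of them (49.0%) had an OE low-N range of at least 1. The median normal-N differences were -1.38 and -1.53, close to the -1.32 of the members. Whether the members differ from these genes in N effect or in spread was not tested.

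In the order of the IDs, whose first number gives the chromosome in this naming, members were found on all 19 chromosomes. Chromosome 1 held 39 members, 1.75% of its 2230 genes that met the level conditions, and chromosome 14 held 20 of 979 (2.04%). The lowest share was 0.570% on chromosome 15, with 4 of 702 genes, against 1.25% over all. A pair of members had IDs on unplaced scaffolds. In 9 runs stood 19 members (8.19%), each adjacent to another member in the ID order of the table. The longest run held 3 IDs, and no chance value was computed for this.

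The run of 3 comprised Potri.001G449800, Potri.001G449900 and Potri.001G450000. Their means in WT and OE at normal N were 24.2 and 10.2, 21.1 and 9.67, and 92.7 and 36.8 FPKM, and each fell at low N, by 1.29, 0.92 and 1.62 (limma adjusted p = 0.00229, 0.00796 and 0.00135). The pair on an unplaced scaffold, Potri.T011300 and Potri.T011301, rose at low N by 1.02 and 2.25 (limma adjusted p = 0.000154 for the first). Potri.009G012500 and Potri.009G012600 moved apart: the first rose by 1.01 and the second fell by 0.54 at low N, with adjusted p = 8.26e-06 and 0.000894 in limma. Adjacent members may be near-identical copies that share reads, which could not be checked here, so the values of single members of a run are uncertain.

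A pair of members stood 2 IDs before and 4 IDs after Potri.014G103000, the most strongly raised ID, in the table. Potri.014G102700 is the one with the sixth largest normal-N difference, described above, and Potri.014G103600 had 4.22, 4.26 and 4.12 FPKM in WT and 1.78, 1.44 and 1.33 in OE at normal N. Potri.014G102800, which stands between the first of them and the raised ID, had means of 13.8 and 13.2 FPKM in WT and OE at normal N. These neighbours were picked out after their values were seen.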

How the data were processed

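RNA was measured in 12 root libraries in 4 groups of 3, assigned by the labels' titles and short column names, and the table held 0 other per-sample columns. The values are FPKM made and deposited by the authors in 1 table, without pooling. TopHat and DESeq2 are named in the submitters' processing notes without version or role. The sources used here do not give the genome build, annotation or FPKM program. With FPKM alone absolute depth is unknown, and no interval for counting error can be had. Relative depth was read from the most frequent ratio between libraries among genes under 0.15 FPKM.

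Genes with at least 1 FPKM in 3 libraries (24570) were fitted as log2(FPKM + 1) in R 4.3.3 with limma 3.58.1 (1 mean per group, trend and robust eBayes, 8 residual degrees of freedom), with p-values adjusted over all of them. The log scale understates changes of weak genes. The procedure was run on simulated data with equal spread in all groups, unlike the members at low N. That run is not used as support here. The labels call libraries replicates without saying whether each came from separate plants, so p-values measure the spread between libraries. Replicate numbers are shared by the groups, but same-numbered libraries did not deviate together, so the fit has no block.

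The members and lists were chosen with earlier results of these data known. The members named are those with the 10 largest normal-N differences, the 6 highest WT normal-N means, the 4 largest called N effects in each direction, and the 2 genes on each side of each threshold. Other IDs are said to be chosen after their values were seen, or are adjacent in ID order. Lists set by gene name could not be run, since no names are given for the IDs. Alternatives tried were the pseudocount, filters, scaling, library weights, plain eBayes, a replicate block and fits without each library in turn.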

Additional observations from a re-analysis of the deposited data

How the results depend on the processing

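The number of members was 298 with a pseudocount of 0.1 (214 shared with the 232), 175 with median-of-ratios scaling (164 shared), 166 with quantile normalization (160 shared) and 225 with a filter at 5 FPKM. It was 210 to 247 when libraries were left out one at a time, with 202 to 225 shared. Members fallen and risen at low N numbered 111 and 70 with the pseudocount of 0.1, 128 and 50 with median-of-ratios scaling (38.2% and 37.4% of all genes), 128 and 51 with quantile normalization (37.4% and 37.8% of all genes), and 112 and 67 with the replicate block, which changed only the call of Potri.012G127400 among the named members (limma adjusted p = 0.0588). Without the 50 members that passed the level condition through WT at normal N alone, tried after seeing the data, 75 fell and 66 rose. Under median-of-ratios scaling 2 called members turned sign and lost the call. The correlations of same-numbered libraries in their deviations from the group means ran from -0.13 to 0.09, so the numbers do not pair the samples. For the named members 519 values under these alternatives kept direction and call, 10 lost the call, 10 gained it and 1 turned over: the N effect of Potri.001G122100 was 0.15 and became -0.0903 after quantile normalization, not called in either. The 10 lost calls are all of Potri.012G127400. Low-N values of weak members are limited by the lower depth of those libraries.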
